A study of Ovis aries with 6 samples.

Results

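Steroid hormones of the ovary are made from cholesterol in a short chain of steps, and 9 genes of that chain were followed through the ovaries of a pair of sheep breeds. The genes were picked by symbol, with earlier results of these data known: SCARB1, STAR, CYP11A1, FDX1, HSD3B1, CYP17A1, HSD17B1, HSD17B7 and SRD5A1. All 9 were found among the 14480 genes of the deposited table, each as a single row. The study compared ovaries taken during estrus from Hu sheep, a prolific breed, and Mongolian sheep, in which single lambs are usual, with 3 RNA-seq libraries of polyadenylated RNA per breed. The 2 groups differ by breed as far as the labels go; age, parity, genotype and treatment are not given, nor is it said whether the 3 libraries of a breed came from separate animals. The p-values below therefore measure only the spread between these libraries, which may be technical. The series title speaks of exosomes, whereas every sample is labelled as ovary. Values listed for a breed follow the order of its replicates 1, 2 and 3.

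Theca and granulosa cells of the follicle, and luteal cells after ovulation, take up cholesterol from lipoproteins, and STAR carries it to the inner mitochondrial membrane. There CYP11A1 cuts off the side chain with electrons passed on by FDX1, giving pregnenolone, which HSD3B1 turns into progesterone. CYP17A1, active in theca cells, opens the way to androgens, and aromatase with HSD17B1 in granulosa cells completes oestradiol.

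Levels are in FPKM, which divides a gene's fragments by its length and by the size of the library, so levels of different genes can be set side by side within a library. The sequencing depth behind the values is unknown. The libraries stood apart in how many genes they listed above 0: Hu 1 listed 6500, Hu 2 listed 7971 and Hu 3 listed 13342, against 10547 to 11463 in the Mongolian libraries. Genes used by nearly all cells were at 0 in some libraries (TBP in Hu 1, HPRT1 in Hu 1 and Mongolian 3), so a value of 0 is described only as listed at 0. The 2 most abundant rows took 53.3% to 79.7% of the summed FPKM of each library. Stromal markers fitted the ovary label, all 7 of those summed being above 0 in every library with sums from 881 to 1142 FPKM, whereas the 3 oocyte markers listed summed to 1.29 FPKM at most and 0 of 6 adrenal cortex markers were listed by symbol.

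**Figure D1:**
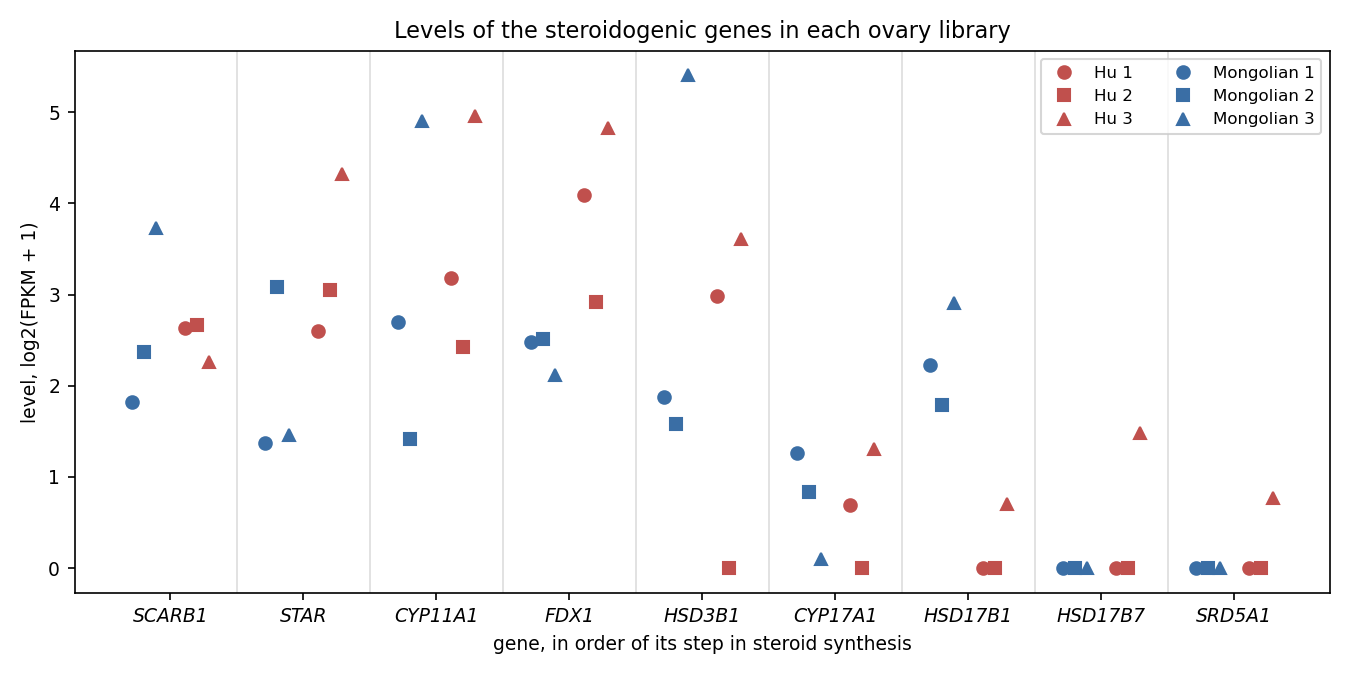
Level of each of the 9 genes on the log2(FPKM + 1) scale (vertical axis) in the 3 Hu libraries (red) and 3 Mongolian libraries (blue), with circles, squares and triangles for replicates 1, 2 and 3. FDX1 lay higher in every Hu library and HSD17B1 higher in every Mongolian library, while Hu 3 and Mongolian 3 stood far above the rest of their breed in CYP11A1.

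Breeds were compared with limma on log2(FPKM + 1) over the 9971 genes that reached 0.5 FPKM in 3 or more libraries. A call was a Benjamini-Hochberg adjusted p under 0.05. Of the 9 genes 7 passed the filter and 0 of the 7 were called, and 0% of all genes tested were called (372 genes, or 3.73%, had an unadjusted p under 0.05). Of those 372, 24.5% were higher in Hu. After quantile normalization 581 genes had such a p, 52.0% of them higher in Hu, and the median difference of all genes moved from -0.28 to 0.02. FDX1 and HSD17B1 were the 2 of the 7 whose breeds did not overlap, FDX1 higher and HSD17B1 lower in Hu, where 1.88% of all genes tested lay wholly higher and 6.05% wholly lower (7.92% either way). STAR, CYP11A1, FDX1 and SCARB1 were above 0 in all 6 libraries, as were 34.8% of all rows.

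Uptake of cholesterol was represented by SCARB1 (ENSOARG00000018396), the scavenger receptor that takes up cholesteryl esters from high-density lipoprotein. SCARB1 stood at 5.21, 5.33 and 3.79 FPKM in the Hu libraries against 2.54, 4.17 and 12.2 in Mongolian. The Hu libraries were close together and all lay within the Mongolian range, whose upper end was Mongolian 3 alone. Means were 4.77 ± 0.857 FPKM in the Hu libraries against 6.32 ± 5.19 in Mongolian (SD, n = 3 each). The log2 difference, Hu minus Mongolian, was -0.12 with a 95% confidence interval from -1.59 to 1.35 (limma adjusted p = 0.998). Its sign turned to 0.42 without Mongolian 3, to 0.01 without Hu 3 and to 0.05 after median-of-ratios scaling.

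STAR (ENSOARG00000001269), the carrier that delivers cholesterol to the side-chain cleavage enzyme, stood at 5.05, 7.28 and 18.9 FPKM in the Hu libraries against 1.58, 7.495 and 1.75 in Mongolian. Mongolian 2 reached the level of Hu 2, and the other two Mongolian libraries lay below every Hu library. The Hu mean was 2.89 times the Mongolian mean (10.4 ± 7.45 against 3.61 ± 3.37 FPKM, SD, n = 3 each). The log2 difference was 1.35 with a standard error of 0.73 (95% confidence interval from -0.20 to 2.90) and was not called (limma adjusted p = 0.998). It kept its sign in each of the 20 alternative settings. Of these, other filters, the variance trend, the replicate block and summed rows cannot move the estimate. The difference was 0.85 without Hu 3 and 2.35 with Hu 1 and Hu 2, the libraries that listed the fewest genes, left out together. That last setting was added once the values were known and keeps Hu 3 as the only Hu library. The median of all genes tested was -0.66 and 0.51 in these settings. In the RefSeq annotation of another sheep assembly (ARS-UI_Ramb_v3.0) the STAR gene overlaps ASH2L, a subunit of histone methyltransferase complexes, and the counting of shared or antisense reads is not given in the sources used here. ASH2L stood at 8.89, 0 and 6.87 FPKM in the Hu libraries against 2.43, 4.004 and 3.48 in Mongolian, an order of libraries unlike that of STAR.

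CYP11A1 (ENSOARG00000003867), the mitochondrial enzyme that commits cholesterol to steroid synthesis, stood at 8.04, 4.36 and 29.96 FPKM in the Hu libraries against 5.50, 1.67 and 28.97 in Mongolian. Each breed held 1 library near 29 FPKM and others well below it, so the spread within a breed was far larger than the gap between their means (14.1 ± 13.8 FPKM in the Hu libraries against 12.05 ± 14.8 in Mongolian, SD, n = 3 each). The log2 difference was 0.51 (95% confidence interval from -1.31 to 2.33; limma adjusted p = 0.998). It turned to -0.21 without Hu 3 and to -0.29 without Mongolian 2.

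FDX1 (ENSOARG00000013370), the ferredoxin that hands electrons to CYP11A1, stood at 16.1, 6.55 and 27.2 FPKM in the Hu libraries against 4.597, 4.69 and 3.34 in Mongolian. Every Hu library lay above every Mongolian library, though Hu 2 was only 6.55 against the Mongolian maximum of 4.69. The Mongolian libraries were alike (4.21 ± 0.756 FPKM, SD, n = 3) and the Hu libraries scattered (16.6 ± 10.4, n = 3), with a Hu mean 3.95 times the Mongolian mean. The log2 difference was 1.57 with a standard error of 0.64 and a 95% confidence interval from 0.21 to 2.93. Its unadjusted limma p was 0.0261, and 0.913% of all genes tested had such a p under 0.05 with a higher level in Hu; the adjusted p was 0.998. Ranked among the genes tested within its own library, FDX1 stood at percentile 92.7, 77.1 and 89.7 in the Hu libraries against 60.9, 63.9 and 45.5 in the Mongolian ones. The difference fell to 0.71 when libraries were weighted by their estimated quality, and to 1.14 without Hu 3. With Hu 1 and Hu 2 left out together it was 2.45, where the median of all genes tested was 0.51.

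FDXR, the reductase that charges FDX1 with electrons, took the other side. It stood at 0.394, 1.05 and 1.12 FPKM in the Hu libraries against 1.22, 2.63 and 13.1 in Mongolian, so that every Mongolian library lay above every Hu library. The gap between Mongolian 1 and Hu 3 was only 1.22 against 1.12, and 6.05% of all genes tested lay wholly lower in Hu. The log2 difference was -1.41 (95% confidence interval from -3.13 to 0.32; limma adjusted p = 0.998) and shrank to -0.64 without Mongolian 3. Whether FDX1 and FDXR differ from each other between breeds was not tested.

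HSD3B1 (ENSOARG00000020402), which makes progesterone from pregnenolone, was listed at 6.94, 0 and 11.2 FPKM in the Hu libraries against 2.67, 1.99 and 41.3 in Mongolian. Mongolian 3 was the highest library by far and Hu 2 the lowest. The log2 difference was -0.75 (95% confidence interval from -2.99 to 1.48; limma adjusted p = 0.998), and its direction rested on those 2 libraries: it was 0.35 without Hu 2 and 0.47 without Mongolian 3.

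CYP17A1 (ENSOARG00000002137), the hydroxylase and lyase of androgen synthesis, was low everywhere, at 0.617, 0 and 1.47 FPKM in the Hu libraries against 1.41, 0.785 and 0.0751 in Mongolian. The breeds overlapped over nearly their whole range, and the log2 difference was -0.07 (95% confidence interval from -1.28 to 1.14; limma adjusted p = 0.998). In Mongolian 3, where CYP11A1 and HSD3B1 were near or at their highest, CYP17A1 was at its lowest value above 0. The RefSeq annotation of ARS-UI_Ramb_v3.0 places a gene named CYP17 next to CYP17A1, so its values are uncertain where reads could be split between a pair of similar copies.

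HSD17B1 (ENSOARG00000002225), which turns oestrone into oestradiol in granulosa cells, was listed at 0, 0 and 0.629 FPKM in the Hu libraries against 3.69, 2.46 and 6.52 in Mongolian. Every Mongolian library lay above every Hu library. The log2 difference was -2.08 with a standard error of 0.69 and a 95% confidence interval from -3.54 to -0.61. Its unadjusted limma p was 0.00855, and 2.82% of all genes tested had such a p under 0.05 with a lower level in Hu. The adjusted p was 0.998. Every Mongolian library reached the 0.5 FPKM of the filter, but of the Hu libraries only Hu 3 did. The gene thus entered the test through the breed where it was higher, which limits what its p and the lack of overlap can show. Within its library HSD17B1 ranked at percentile 19.5, 12.9 and 3.82 in the Hu libraries against 53.2, 41.7 and 67.2 in the Mongolian ones, a value of 0 sharing the middle rank of all genes at 0.

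The size of the HSD17B1 difference depended on the constant added before taking logs, being -4.37 with 0.1 and -6.61 with 0.01. The difference was called with limma array weights (adjusted p = 0.0245), a setting that put the largest weight, 3.64, on Hu 2 and called 6.35% of all genes tested; its adjusted p over the other settings reached 1.000 at most and 0.218 at least. Listing at 0 in both Hu 1 and Hu 2 was not rare: of 4738 genes above 2 FPKM in all 3 Mongolian libraries, 261 (5.51%) were at 0 in both, 19.3% were at 0 in Hu 1 and 0.211% in Hu 3. In Hu 3, which listed the most genes, HSD17B1 was above 0 but still under every Mongolian library.

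HSD17B7 (ENSOARG00000010935), an enzyme of the same reductase family that also serves cholesterol synthesis, was listed above 0 only in Hu 3, at 1.80 FPKM. SRD5A1 (ENSOARG00000014965), a 5-alpha reductase that saturates testosterone and progesterone, was likewise above 0 only in Hu 3, at 0.705 FPKM. Neither gene passed the filter, and the exact permutation test over libraries gave p = 1 for both (two-sided; with 3 libraries a breed it cannot go below 0.1). Of all 14480 rows 1139 (7.87%) were above 0 in Hu 3 alone, the library with the most genes listed.

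**Figure D2:**
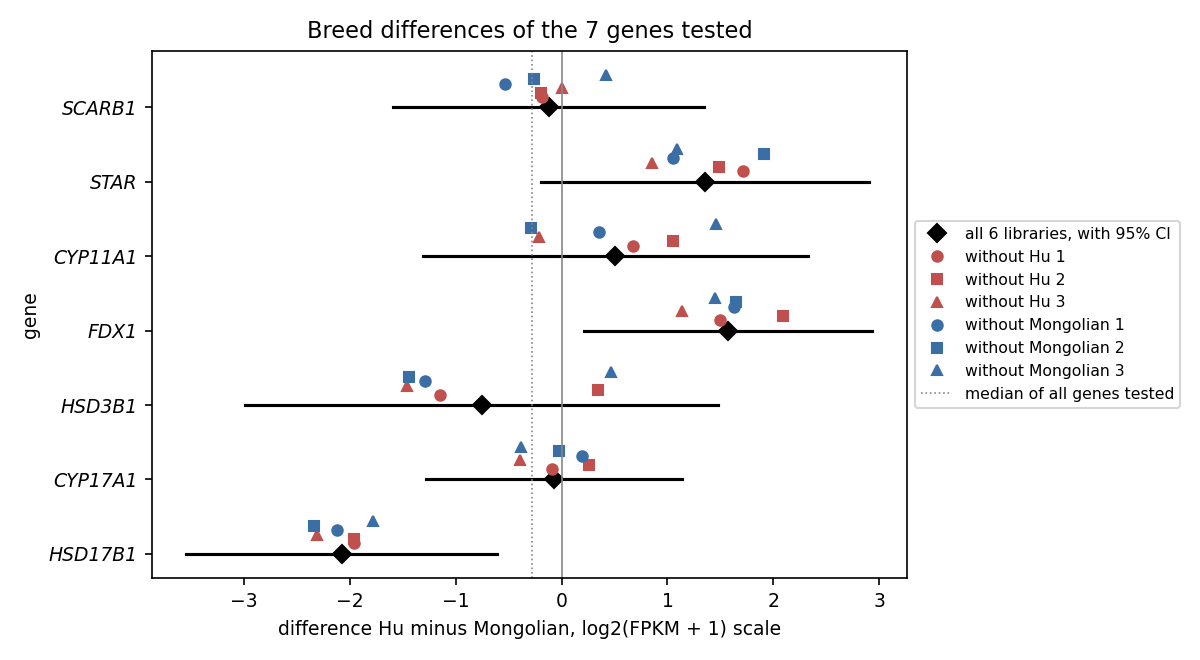
Breed difference of the 7 genes tested (horizontal axis, Hu minus Mongolian on the log2(FPKM + 1) scale). Black diamonds and bars are the estimate and 95% confidence interval from all 6 libraries, and coloured marks are the estimates with 1 library left out. STAR, FDX1 and HSD17B1 kept their sides throughout, whereas CYP11A1, HSD3B1, CYP17A1 and SCARB1 crossed 0, and the dotted line marks the median of all genes tested (-0.28).

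Within a library the 9 genes formed a different mixture each time. Their summed level was 41.9, 23.5 and 95.7 FPKM in the Hu libraries against 22.0, 23.3 and 94.2 in Mongolian, so Hu 3 and Mongolian 3 were alike in total and stood apart from the other 4 libraries. The mixtures behind those 2 totals were unlike. In Mongolian 3 HSD3B1 made up 43.8% of the sum, CYP11A1 30.8%, FDX1 3.54% and STAR 1.85%. In Hu 3 CYP11A1 made up 31.3%, FDX1 28.5%, STAR 19.8% and HSD3B1 11.7%.

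The leading gene was FDX1 in Hu 1 (38.4% of the sum), STAR in Hu 2 (30.95%) and Mongolian 2 (32.2%), CYP11A1 in Hu 3 and Mongolian 1 (25.0%), and HSD3B1 in Mongolian 3. FDX1 took 27.9% to 38.4% of the sum in the Hu libraries and 3.54% to 20.9% in the Mongolian libraries, without overlap. HSD17B1 took 0 to 0.657% in Hu and 6.93% to 16.8% in Mongolian, also without overlap, where 7.92% of all genes tested did not overlap in level. Both shares reuse the levels given above and are not further evidence, and HSD17B1 had entered the test through the Mongolian libraries. These shares do not change when a library is multiplied by a constant, and they are given as a description because a rise of 1 gene lowers the shares of the others.

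**Figure D3:**
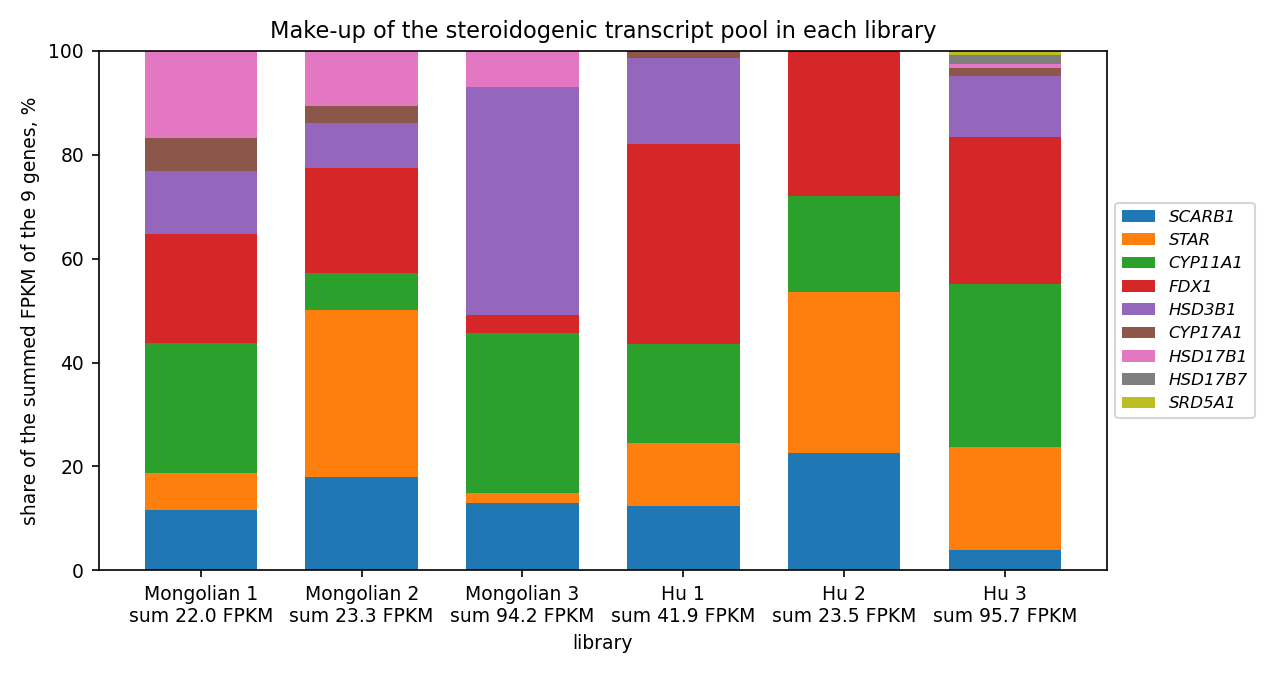
Share of the summed FPKM of the 9 genes that each gene took in each library (stacked bars, percent, from 0 to 100), with the sum in FPKM under each bar. FDX1 (red) was a larger part of every Hu bar than of any Mongolian bar, HSD17B1 (pink) was visible in the Mongolian bars, and HSD3B1 (purple) filled 43.8% of Mongolian 3.

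A set of 3 ratios within a library was compared between breeds by exact permutation of the libraries (two-sided, smallest possible p 0.1, Benjamini-Hochberg adjusted over the 3). The log2 ratio of STAR to CYP11A1, on FPKM + 1, was -0.58, 0.63 and -0.64 in Hu and -1.33, 1.67 and -3.45 in Mongolian. In Mongolian 3, which had CYP11A1 at 28.97 FPKM, STAR was thus listed at only 1.75. The breeds differed by 0.84 in this ratio, less than the spread within Mongolian (exact p = 0.7, adjusted 0.7), and by -0.36 without Mongolian 3.

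The log2 ratio of HSD3B1 to CYP11A1 was -0.19, -2.42 and -1.34 in Hu and -0.83, 0.16 and 0.50 in Mongolian, a difference of -1.26 (exact p = 0.2, adjusted 0.3). Hu 1 lay inside the Mongolian range. The log2 ratio of HSD17B7 to HSD17B1 was 0, 0 and 0.78 in Hu and -2.23, -1.79 and -2.91 in Mongolian, a difference of 2.57 without overlap (exact p = 0.1, adjusted 0.3). Because HSD17B7 was listed at 0 in 5 libraries, that ratio holds little beyond the HSD17B1 values themselves.

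Markers of the steroid-making cell types were read beside these genes. In bulk ovary fewer cells of a type and less RNA per cell cannot be told apart. Of 12 luteal markers 10 were listed, with summed levels of 124, 85.7 and 289 FPKM in the Hu libraries against 33.2, 25.8 and 465 in Mongolian. The 2 libraries highest in CYP11A1 were therefore the 2 with the highest luteal sum, and the 3 highest in HSD3B1 were the 3 with the highest luteal sum. The match in CYP11A1 was not particular to luteal markers. Those of ovarian surface epithelium also summed highest in these libraries, at 21.3 FPKM in Hu 3 and 38.8 in Mongolian 3. Of the 5 luteal markers tested 2 were higher in Hu and the median difference was -0.13 (log2), against 32.3% and -0.28 for all genes. OXT (2.30) and TIMP1 (1.02) were higher, and PTGFR (-0.13), PAPPA (-0.25) and GNPDA1 (-0.58) lower. The luteal sum was mostly OXT, the oxytocin precursor made by granulosa and luteal cells of ruminants, and TIMP1, a secreted protease inhibitor of the corpus luteum.

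OXT was listed at 78.6, 9.74 and 42.1 FPKM in the Hu libraries against 0, 0 and 305 in the Mongolian ones. TIMP1 stood at 44.0, 70.2 and 173 FPKM in the Hu libraries against 24.3, 16.7 and 149 in Mongolian. PTGFR, the luteal receptor of prostaglandin F, went another way and was listed at 53.7 FPKM in Hu 3, at 2.23 to 5.36 in Mongolian and at 0 in Hu 1 and Hu 2. RGN, PRLR and HPGD were at 0 in every library but Hu 3 (3 genes picked with their values known). The part of luteal cells in the values of CYP11A1 and HSD3B1 was not tested.

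Of 20 granulosa markers 13 were listed, and without HSD17B1 they summed to 280, 63.3 and 172 FPKM in the Hu libraries against 119, 76.4 and 138 in Mongolian. Of the 9 tested, HSD17B1 included, 4 were higher in Hu and the median difference was -0.80 (log2), which was 0.06 without Hu 1 and 0.20 without Mongolian 3. Over all genes tested 32.3% were higher and the median was -0.28. The sum was carried by INHA, SERPINE2 and INHBA, with log2 differences of 0.68, 0.86 and 1.08. FST, the activin-binding follistatin, went the other way with -1.57 (-0.70 without Hu 2), as did GATM with -1.02, GJA1 with -0.98 and NR5A2 with -0.80 (the last 3 chosen after their values were seen). The part of granulosa cells in the values of HSD17B1 was not tested. INHA, the inhibin alpha subunit, stood at 99.1, 15.6 and 45.2 FPKM in the Hu libraries against 25.9, 15.8 and 40.4 in Mongolian. Aromatase, the enzyme before HSD17B1 on the way to oestradiol, is listed in the table under its older symbol CYP19. It was at 3.07 FPKM in Hu 3 and at 0 in the other 5 libraries (CYP19 was chosen after its values were seen).

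Of 11 theca markers 8 were listed, and without CYP17A1 they summed to 272, 282 and 624 FPKM in the Hu libraries against 402, 245 and 299 in the Mongolian ones, nearly all of it ACTA2, which smooth muscle shares. Of the 6 tested, CYP17A1 included, 2 were higher in Hu and the median difference was -0.20 (log2), against 32.3% and -0.28 for all genes. ANPEP and PTCH1 had the smallest unadjusted p (limma, 0.116 and 0.151), both with a log2 difference of -1.18. ANPEP was wholly lower in Hu, as were 6.05% of all genes tested. INSL3, a peptide hormone of theca cells, stood at 26.8, 5.10 and 17.1 FPKM in the Hu libraries against 13.7, 5.13 and 32.6 in Mongolian. Mongolian 3 was thus highest in INSL3 and lowest above 0 in CYP17A1. LHCGR, the luteinizing hormone receptor, was above 0 in 3 libraries only, at 0.376 FPKM in Hu 1, 9.24 in Hu 3 and 2.69 in Mongolian 2 (chosen after its values were seen).

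**Figure D4:**
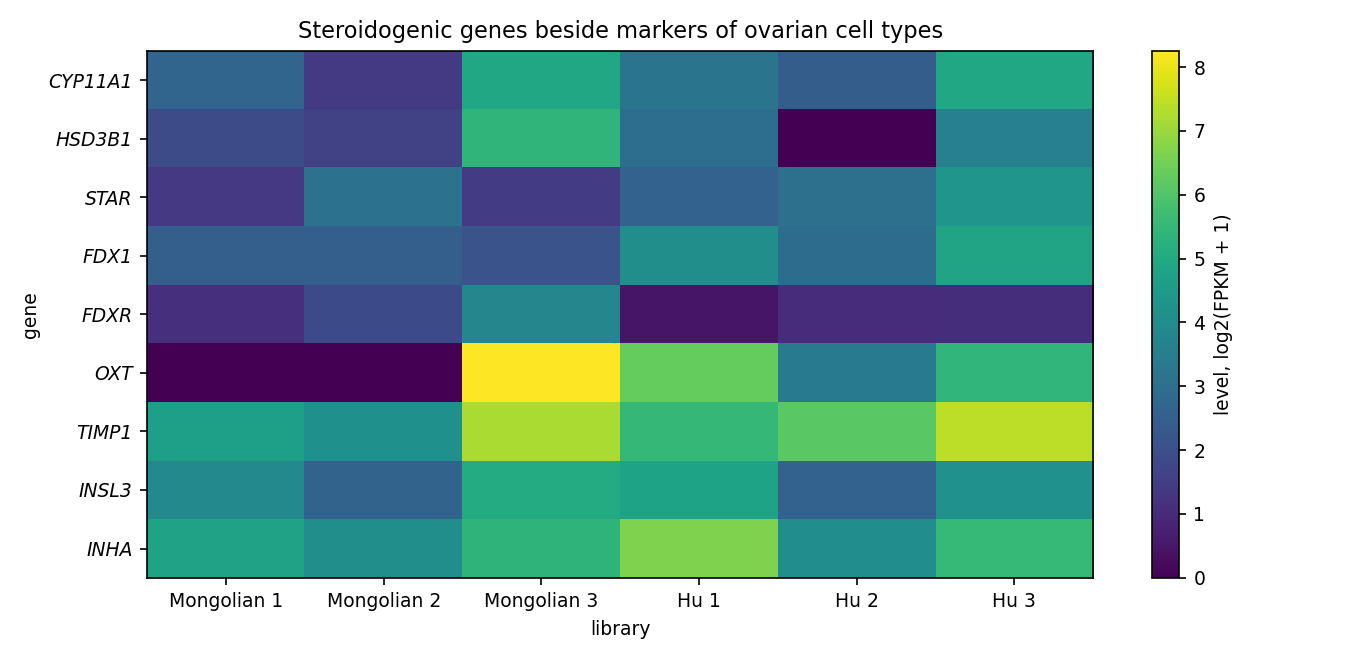
Level of CYP11A1, HSD3B1, STAR, FDX1 and FDXR and of markers of luteal (OXT, TIMP1), theca (INSL3) and granulosa cells (INHA) in each library, as colour on the log2(FPKM + 1) scale. OXT, HSD3B1 and CYP11A1 were bright in Mongolian 3, where STAR and FDX1 were dark; STAR and FDX1 were brightest in Hu 3.

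Genes of the wider pathway were grouped in lists and counted. Of 40 other enzymes of steroid synthesis and conversion 11 were listed and 6 tested, with 0 called. Of the 6, 3 were higher in Hu and the median difference was -0.09 (log2), against 32.3% higher and -0.28 for all genes tested. AKR1B1, an aldo-keto reductase that in ruminant uterus also makes prostaglandin F, stood at 20.5, 24.8 and 26.8 FPKM in the Hu libraries against 12.4, 10.3 and 7.72 in Mongolian. Every Hu library lay above every Mongolian library, as in 1.88% of all genes tested (log2 difference 1.18, 95% confidence interval from 0.08 to 2.29; limma adjusted p = 0.998).

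HSD17B4, a peroxisomal enzyme that oxidises oestradiol and fatty acids, stood at 4.45, 7.33 and 18.9 FPKM in the Hu libraries against 12.3, 6.59 and 7.56 in Mongolian, with a log2 difference of 0.02. HSD17B10, a mitochondrial dehydrogenase, had a log2 difference of -0.93, HSD17B12 one of 0.61 and CBR4 one of -1.05. With 1 library left out these ranged from -1.63 to 0.05 for HSD17B10, from -0.49 to 1.43 for HSD17B12, from -1.98 to -0.59 for CBR4 and from -0.50 to 0.43 for HSD17B4. The count of members higher in Hu was 1 of 6 without Hu 3, 5 of 6 without Hu 1 and 6 of 6 with Hu 1 and Hu 2 left out together. The median of all genes tested was -0.66, 0.01 and 0.51 in these settings, the last with Hu 3 as the only Hu library. Of the 11 listed, 5 were above 0 in Hu 3 alone: CYP19, HSD17B14, HSD11B1, SRD5A2 (at 4.61 FPKM) and SRD5A3 (the last 4 chosen after their values were seen).

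Of 12 redox partners of the P450 enzymes 4 were listed and tested, with 0 called. Besides FDXR, these were CYB5A, the cytochrome b5 that aids CYP17A1, with a log2 difference of -0.94, FDX2, a mitochondrial ferredoxin of iron-sulfur assembly, with 0.435, and H6PD with 0.27. CYB5A spread from 0 in Hu 1 to 27.6 FPKM in Hu 3, wider than in the Mongolian libraries (4.67 to 13.4), and its Hu mean of 10.6 FPKM was above the Mongolian mean of 9.87. Its log2 difference turned to 0.25 without Hu 1 and to 1.51 with Hu 1 and Hu 2 left out together, and was -2.17 without Hu 3. With 1 library left out FDX2 ranged from -0.33 to 1.41 and H6PD from -0.35 to 1.07.

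Of 40 genes of cholesterol uptake, trafficking and storage 30 were listed and 23 tested, with 0 called and 11 higher in Hu. Their median difference was -0.22 (log2), against 32.3% higher and -0.28 for all genes tested. The count of members higher in Hu was 6 of 23 without Hu 3 and 18 of 23 with Hu 1 and Hu 2 left out together. The median of all genes tested was -0.66 and 0.51 in these settings, the last with Hu 3 as the only Hu library. OSBP, an oxysterol-binding carrier, had the smallest unadjusted p (0.0880): it stood at 1.02, 4.18 and 4.64 FPKM in the Hu libraries against 5.80, 5.47 and 19.6 in Mongolian. Its log2 difference of -1.31 was -0.77 without Mongolian 3 and -0.84 without Hu 1. STARD3NL, which tethers late endosomes, had a log2 difference of 1.35, STARD7, a carrier of phosphatidylcholine, one of -1.13, and HSPD1, the mitochondrial chaperonin, one of 0.83. With 1 library left out they ranged from 0.78 to 2.32, from -1.72 to -0.31 and from 0.42 to 1.66 in that order. The most abundant members were ACBD3, LRP1 and VDAC2, with log2 differences of 0.17, -0.46 and 0.27, of which ACBD3 turned to -0.22 and VDAC2 to -0.28 without Hu 3. Of the 23, 1 lay wholly higher in Hu (NPC1) and 2 wholly lower (OSBP and ABCA1, the exporter of cellular cholesterol), against 1.88% and 6.05% of all genes tested. NPC1, which lets cholesterol out of lysosomes, stood at 1.80, 1.996 and 1.78 FPKM against 0.493, 0.921 and 1.06 (NPC1 and ABCA1 were chosen after their values were seen).

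Of 41 regulators of steroidogenic genes 24 were listed and 22 tested, with 0 called. Of the 22, 3 were higher in Hu, against 32.3% of all genes tested. The list's median was -0.64 (log2), or 0.37 below that of all genes. The count was 1 of 22 without Hu 3, 6 of 22 without Hu 1 or without Hu 2, 4 of 22 after median-of-ratios scaling and 7 of 22 after quantile normalization, and 11 of 22 with Hu 1 and Hu 2 left out together, where the list lay 0.38 below the median of all genes. NR2F1, an orphan nuclear receptor of stromal and theca cells, stood at 1.35, 8.04 and 8.15 FPKM in the Hu libraries against 17.6, 17.3 and 13.3 in Mongolian (log2 difference -1.55, or -0.90 without Hu 1; limma adjusted p = 0.998).

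FOSL2, an AP-1 factor, stood at 42.2, 28.4 and 37.1 FPKM in the Hu libraries against 54.8, 44.8 and 155 in Mongolian. SREBF2, the regulator of cholesterol synthesis and uptake, had a log2 difference of -1.17 (-0.71 without Hu 1), and CREBBP, a coactivator of cAMP responses, one of -1.01. The AP-1 genes JUN and FOS, abundant and quick to respond to handling, went opposite ways. JUN stood at 12.9, 36.3 and 146 FPKM in the Hu libraries against 28.8, 22.6 and 29.1 in Mongolian (log2 difference 0.62). FOS stood at 0.802, 2.11 and 43.2 FPKM in the Hu libraries against 15.1, 7.88 and 16.4 in Mongolian (log2 difference -1.11). An effect of handling was not tested. NR5A2, an orphan receptor that drives CYP11A1 and STAR in granulosa and luteal cells, stood at 5.33, 0.962 and 3.51 FPKM in the Hu libraries against 2.77, 1.95 and 25.6 in Mongolian (chosen after its values were seen). Its highest library, Mongolian 3, was also highest in HSD3B1, SCARB1, OXT and FDXR. STAR, however, was listed there at only 1.75 FPKM against 18.9 in Hu 3, and CYP11A1 was highest in Hu 3 (29.96 against 28.97). A link between NR5A2 and these genes was not tested.

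Of 33 genes of gonadotropin receptors and cAMP signalling 27 were listed and 22 tested, with 0 called and 7 higher in Hu. Their median difference was -0.35 (log2), against 32.3% higher and -0.28 for all genes tested. The 4 with the smallest p were all lower in Hu, as were 281 of the 372 genes with an unadjusted limma p under 0.05. They were ADCY3, an adenylyl cyclase (-1.45), PDE7B, a phosphodiesterase (-1.63), PRKAR2B, a regulatory subunit of protein kinase A (-1.05) and ARRB2, a beta-arrestin (-1.17). With Hu 1 and Hu 2 left out together PDE7B turned to 0.61 and PRKAR2B to 0.30, while ADCY3 and ARRB2 were -0.74 and -0.72. PRKAR2B was also the most abundant, at 12.4, 10.5 and 49.7 FPKM in the Hu libraries against 52.5, 32.0 and 38.2 in Mongolian. The count of members higher in Hu was 3 of 22 without Hu 3, and 12 of 22 both after quantile normalization and with Hu 1 and Hu 2 left out together. The median of all genes tested was -0.66, 0.02 and 0.51 in these settings, the last with Hu 3 as the only Hu library.

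**Figure D5:**
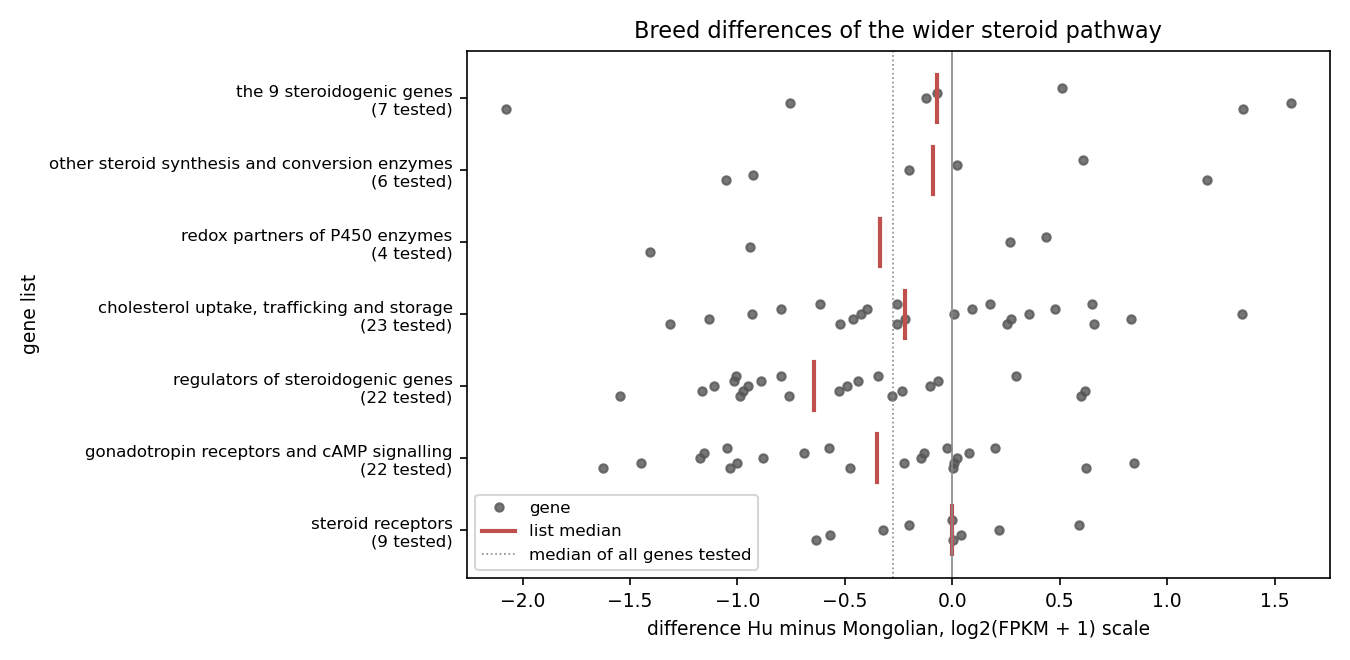
Breed difference of every tested gene of 7 lists (horizontal axis, Hu minus Mongolian on the log2(FPKM + 1) scale), with a red bar at each list's median and a dotted line at the median of all genes tested (-0.28). The regulators had the lowest median (-0.64) of these lists, and the 9 steroidogenic genes spread from -2.08 to 1.57.

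Genes whose levels followed a steroidogenic gene most closely over the 6 libraries were listed by Pearson correlation of log2(FPKM + 1), as a description. The 6 points share each library's depth and composition, 6785 genes were compared, and 0.855% of them exceeded 0.9 for STAR, 0.531% for CYP11A1 and 0.368% for SCARB1. Closest to STAR were THAP12 (0.99), KLHDC2 (0.99), ARL1 (0.99), CD44 (0.98) and MANF (0.97). Closest to CYP11A1 were TARBP2 (0.97), POLR2F (0.97), SRF (0.96), CFL1 (0.95) and HDLBP (0.95). Closest to SCARB1 were TTC7A (0.98), EPN2 (0.98), GADD45B (0.98), VCAN (0.97) and COL4A1 (0.97). None of the 15 was one of the other 8 steroidogenic genes. Of those, CYP17A1, HSD17B7 and SRD5A1 were not compared, because their mean levels lay under the 1 FPKM required. Only the 5 closest genes were listed each time, so correlations within the pathway are not described here.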

How the data were processed

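The authors deposited FPKM values per gene, with a column for each of the 6 libraries (the title of the deposited table names the unit); per the labels' protocols, RNA was taken with an RNeasy kit and libraries were made with a SMARTer kit. The sources used here do not name the aligner, the counting tool, its strand setting or the genome build (not given in the sources used here). Columns were matched to samples by the codes in the sample descriptions, and 0 columns were left without a sample. The deposited FPKM gave no steps of whole reads (at most 0.566% of genes under 2 FPKM fell in the same 0.2% step of a ratio between libraries), so depth is unknown and counts were not modelled. The libraries had 0 identical values above 0 in common.

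Genes that reached 0.5 FPKM in 3 or more libraries were tested on log2(FPKM + 1), a scale that understates changes of low genes, with limma 3.58.1 in R 4.3.3 (lmFit, eBayes with trend, two-sided, breed only, Benjamini-Hochberg over all 9971 genes). The script was tested on simulated data. The 9 genes and the 17 gene lists were chosen with earlier results of these data known, so they are not independent evidence. Named genes are the 9, and of each list described up to 4 with the smallest p and the 3 most abundant, and the 5 genes most correlated with STAR, CYP11A1 and SCARB1; exceptions are marked, and TBP, HPRT1, ASH2L, RGN, PRLR and HPGD were also named outside the rule. List symbols not found were looked up among RefSeq synonyms, which added CYP19. Alternatives were other pseudocounts, filters, scalings, variance models, a covariate, the replicate block, leaving out each library and, added after the data were seen, leaving out Hu 1 and Hu 2 together. That last setting keeps Hu 3 as the only Hu library, and the median difference of all genes tested was 0.51 in it. Sequences and coordinates were not used here, and the lncRNA table was not analysed. Of the genes in the lists, 1 is not reported here.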

Additional observations from a re-analysis of the deposited data

How the results depend on the processing

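Over the 9 genes, 143 alternative values kept the direction and the side of the threshold, 15 turned sign, 1 gained a call and 2 were exactly 0 (HSD17B7 and SRD5A1 without Hu 3). Settings that change only the filter, the variance trend, the replicate block or the summing of rows leave an estimate as it was. The sign could not turn in those settings. STAR, FDX1 and HSD17B1 kept their sign in every setting run, with ranges of 0.85 to 2.35, 0.71 to 2.45 and -6.61 to -1.61. SCARB1 turned to 0.047 under median-of-ratios scaling, to 0.057 when quantile normalized and to 0.28 with array weights. CYP17A1 turned to 0.37 when quantile normalized, to 0.14 with each library's listed genes as a covariate and to 0.57 with Hu 1 and Hu 2 left out together, and HSD3B1 to 0.66 in that last setting. Array weights called 633 genes (0 as reported), 1 of them among the 9 (HSD17B1, -2.15). Leaving out 1 library gave between 0 (each Mongolian library and Hu 1) and 4 calls (2 without Hu 2, 4 without Hu 3), 0 of them among the 9. The differences then ranged from -0.29 to 1.46 for CYP11A1, -1.46 to 0.47 for HSD3B1, -0.39 to 0.26 for CYP17A1, -0.53 to 0.42 for SCARB1 and -0.36 to 2.20 for the ratio of STAR to CYP11A1. The cause of these turns was not tested.

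Replicate numbers did not pair the samples: deviations of same-numbered libraries from their breed means correlated at -0.01, -0.03 and -0.18 across genes, and no Hu library correlated best with the Mongolian library of its own number. With the replicate block 0 genes were called, and 397 had an unadjusted p under 0.05 against 372 without it. HSD17B1 and CYP17A1 could not be tested at a filter of 5 FPKM or among genes above 0 in all libraries, and HSD3B1 could not in the latter. Each of the 9 had a single row, so summing rows changed nothing. The median 95% confidence interval of a gene reached 1.51 to either side on the log2 scale, which limits what 3 libraries per breed can show. A planned description of promoter and protein sequences was not run.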

Other observations

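Receptors for the steroids were read in the same libraries. Of 20 genes of steroid receptors and their chaperones 11 were listed and 9 tested, with 0 called by limma and 4 higher in Hu. Over all genes tested 32.3% were higher. NR3C2, the mineralocorticoid receptor, was listed at 0, 0 and 1.17 FPKM in the Hu libraries against 2.21, 0.321 and 0.924 in Mongolian. FKBP5, a cochaperone induced by progesterone and glucocorticoids, stood at 21.9, 54.7 and 53.7 FPKM in the Hu libraries against 41.4, 52.4 and 59.4 in Mongolian. HSP90AB1, the chaperone that holds these receptors ready, was the most abundant of the list, at 321, 345 and 578 FPKM in the Hu libraries against 406, 359 and 435 in the Mongolian ones (log2 difference 0.0046, 95% confidence interval from -0.95 to 0.96, and values from -0.26 to 0.16 with 1 library left out). The count of members higher in Hu was 0 of 9 without Hu 3 and 8 of 9 with Hu 1 and Hu 2 left out together, so it moved with the libraries that were kept. The median of all genes tested was -0.66 and 0.51 in these settings, the last with Hu 3 as the only Hu library.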
